A study of Zea mays with 72 samples.

Results

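The 4 JAZ repressor genes described here are TIFY20, TIFY28 (NCBI Gene 100284433), TIFY9 (100284894, listed under the symbol gpm925) and JAZ9 (100274370, also named TIFY13). They were chosen by gene number and name, without use of their levels, from 32235 maize genes with values, 25558 of which had enough counts to be tested. All 4 were tested, and all 288 of their 288 expected counts were whole numbers (tolerance 1e-06), as is the case where no read is divided between genes. The names come from a gene table that pairs numbers with symbols. The protein motifs that define a JAZ repressor were not analysed here.

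JAZ proteins belong to the plant TIFY family and hold jasmonate-responsive genes off by binding MYC-type basic helix-loop-helix (bHLH) factors. When active jasmonate (jasmonoyl-isoleucine) accumulates, it joins JAZ proteins to the F-box receptor COI1, JAZ is degraded and the MYC factors are released. In Arabidopsis, many JAZ genes are themselves switched on by MYC factors, which gives the pathway a negative feedback, and JAZ transcripts are widely used as early markers of jasmonate signalling after wounding.

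The leaves were whole, detached leaves of V4-stage seedlings of the maize inbred line B73. Of the 3 leaves compared, leaf 4 was the mature one and leaves 5 and 6 were immature. The treated leaves of each age were exposed from a dispenser to HAC, the ester (Z)-3-hexenyl acetate that damaged leaves emit as a volatile, for 30 min or 2 h, or received the maize elicitor peptide ZmPep3 for 2 h at about 1 µM in the water around the cut end. Control leaves had neither agent, and the labels give no time for them. Each of the 12 groups had 6 biological replicates, and each leaf had 1 control group that all 3 of its treatments share. All leaves, controls included, had been cut under water and rested before treatment, and the sheath had been removed from leaf 4. Leaf age and this handling therefore cannot be told apart in comparisons with leaf 4.

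Library totals ran from 26212027 to 31052273 counts (median 29911694). Genes of C4 photosynthesis marked the material as leaf. The phosphoenolpyruvate carboxylase gene pep1 ran from 1242 to 12801.5 CPM (counts scaled by library size) over the libraries, and the meristem gene kn1 had a median of 0 CPM in every leaf, with at most 0.376 CPM. Of the ligule genes, lg1 stood at 1.07 to 5.35 CPM in leaf 6, against 0 to 0.648 CPM in leaf 4. Another, lg4, had a median of 0 CPM in every leaf, and lg3 was not found by name. 3 pairs of libraries had stood apart in earlier results of these data: leaf 4 HAC 30 min libraries 5 and 6, leaf 5 ZmPep3 libraries 1 and 6, and leaf 6 control libraries 5 and 6. Fold changes and gene counts that use these groups were recomputed without each pair, as were the ratios to JAZ9 in leaf 4, and changes are given beside them or under the dependence on processing. In bulk leaf RNA, fewer cells of a type and less RNA per cell cannot be told apart.

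After 30 min of HAC, all 4 JAZ genes rose in all 3 leaves and the fold changes were smallest in leaf 4. In leaf 5 the rises were 132-fold for TIFY20, 66.7-fold for TIFY28, 62.0-fold for TIFY9 and 26.4-fold for JAZ9. In leaf 4 they were 12.9-fold, 11.0-fold, 5.82-fold and 2.73-fold in the same order of genes. Of all genes tested, 2.53% rose in leaf 4, 8.15% in leaf 5 and 8.49% in leaf 6 (edgeR's quasi-likelihood test, Benjamini-Hochberg adjusted p under 0.05, the threshold used throughout).

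TIFY20 had a median of 22.5 CPM in leaf 4 after 30 min of HAC (range over 6 libraries 10.7 to 27.3), against 1.61 CPM in leaf 4 controls (0.893 to 2.11). In leaf 5 the median was 60.0 CPM (37.8 to 72.2) with HAC, against 0.490 CPM (0.256 to 0.563) in controls. In leaf 6 it was 50.6 CPM (39.6 to 63.7) with HAC, against 0.454 CPM (0.196 to 0.940) in controls. Every HAC library lay above every control library of its leaf. How many of all genes tested had groups separated in this way was not counted, here or in the later comparisons. The log2 fold changes were 3.69 ± 0.26 (SE), 7.04 ± 0.31 and 6.70 ± 0.31 in leaves 4, 5 and 6, with adjusted p of 1.48e-17, 3.38e-28 and 2.69e-27. Ordered by log2 fold change, TIFY20 stood at position 44 in leaf 4, 22 in leaf 5 and 20 in leaf 6 among the 25558 genes.

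TIFY28 had the highest median of the 4 genes per gene length (FPKM) after 30 min of HAC in each leaf. After 30 min of HAC its medians were 109 CPM in leaf 4 (70.1 to 138), 208 CPM in leaf 5 (179 to 311) and 224 CPM in leaf 6 (162 to 248). The control medians were 8.47 CPM in leaf 4 (4.73 to 14.9), 3.91 CPM in leaf 5 (1.82 to 4.71) and 4.93 CPM in leaf 6 (2.11 to 14.2). The groups did not overlap in any leaf, and the log2 fold changes were 3.46 ± 0.29, 6.06 ± 0.33 and 5.19 ± 0.32. The control value of 14.2 CPM came from leaf 6 control library 4, and the other 5 controls of that leaf had at most 5.93 CPM.

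TIFY9 after 30 min of HAC had medians of 94.4 CPM in leaf 4 (57.6 to 115), 150 CPM in leaf 5 (122 to 197) and 143 CPM in leaf 6 (113 to 156). Controls of leaves 4, 5 and 6 had medians of 16.1 CPM (5.67 to 24.0), 2.21 CPM (1.10 to 4.38) and 2.62 CPM (1.04 to 5.20). The groups were separate in each leaf. Its log2 fold changes were 2.54 ± 0.27 in leaf 4, 5.95 ± 0.32 in leaf 5 and 5.56 ± 0.32 in leaf 6.

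JAZ9 had the lowest median FPKM of the 4 in each leaf at 30 min of HAC. Its medians were 4.24 CPM in leaf 4 (1.14 to 6.15), 8.70 CPM in leaf 5 (3.99 to 10.2) and 7.16 CPM in leaf 6 (3.53 to 12.95). In controls they were 1.32 CPM (0.847 to 2.03), 0.305 CPM (0.165 to 0.422) and 0.731 CPM (0.0336 to 2.63) in leaves 4, 5 and 6. The groups overlapped in leaf 4 only, where HAC libraries 5 and 6, at 1.14 and 1.33 CPM, lay within the control range while the other 4 ran from 4.17 to 6.15 CPM. The log2 fold changes were 1.45 ± 0.35 in leaf 4 (adjusted p = 0.00793), 4.72 ± 0.43 in leaf 5 (8.77e-14) and 2.97 ± 0.38 in leaf 6 (3.07e-09). Without libraries 5 and 6 the leaf 4 value was 1.87 (adjusted p = 0.000178). Leaf 6 control library 4 was also the highest control of JAZ9, with 2.63 CPM, and without it the leaf 6 value was 3.57 (adjusted p = 3.25e-11).

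**Figure D1:**
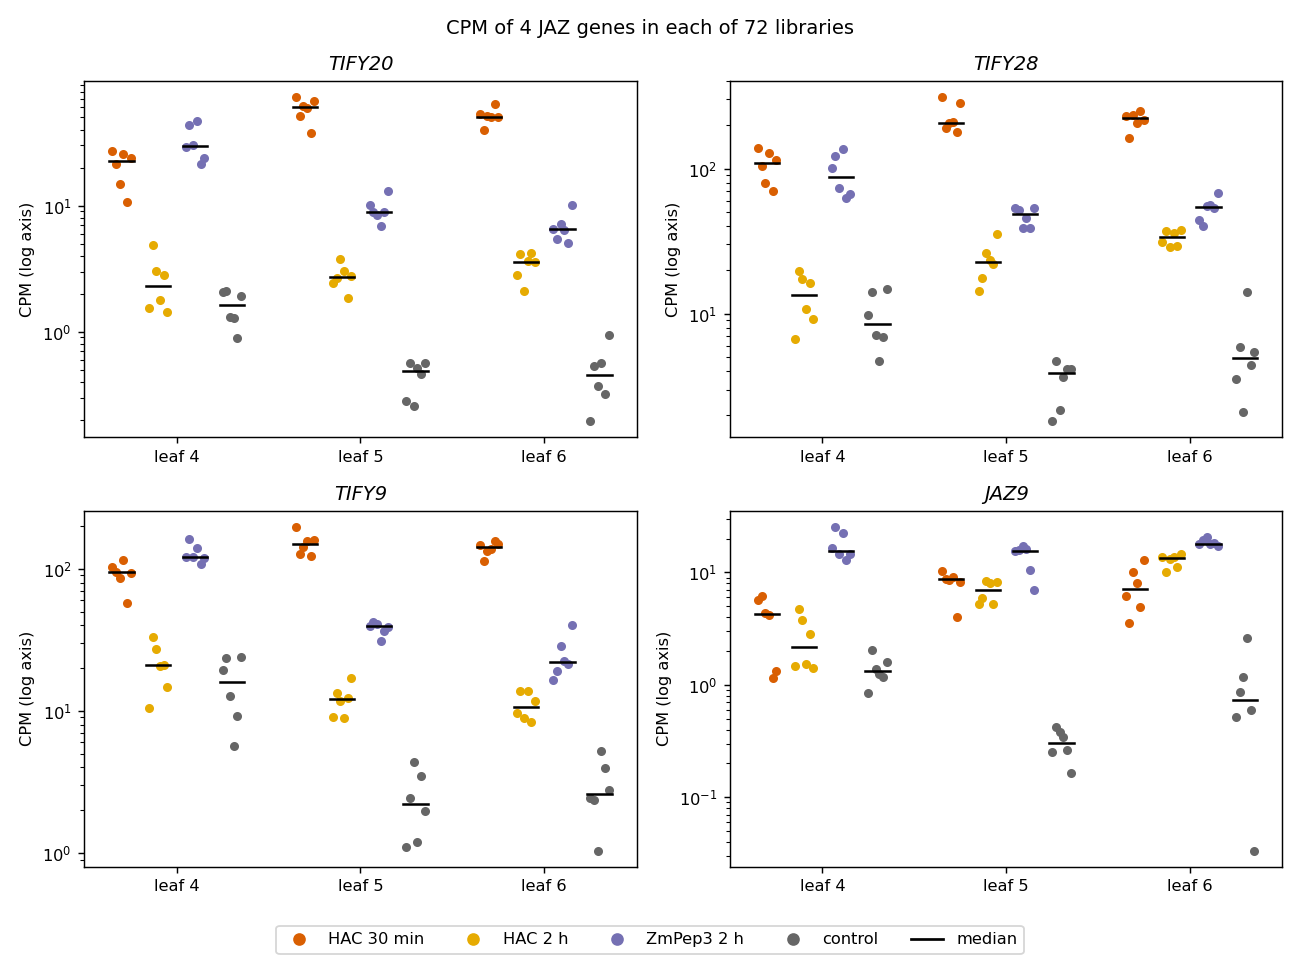
CPM (log axis) of the 4 JAZ genes in all 72 libraries, by leaf (horizontal axis) and treatment (colour), with 1 point per library and a black bar at the median of 6. TIFY20, TIFY28 and TIFY9 are high after 30 min of HAC and lower after 2 h, while JAZ9 in leaves 5 and 6 stays high at 2 h.

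After 2 h of HAC, the 4 genes were still above controls in leaves 5 and 6 and no longer passed the test in leaf 4. In leaf 5, TIFY20 was 6.25-fold, TIFY28 6.69-fold, TIFY9 4.97-fold and JAZ9 22.2-fold above controls. In leaf 6 they were 6.93-fold, 5.61-fold, 3.74-fold and 13.1-fold for the genes in the same order, with all treated libraries above all controls in both leaves. Of all genes tested, 9.59% rose in leaf 5 and 13.9% in leaf 6. In both leaves JAZ9 had the smallest fold change of the 4 at 30 min and the largest at 2 h. Without leaf 6 control library 4, the JAZ9 log2 fold change in leaf 6 was 4.32, and 3.71 ± 0.38 with it.

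TIFY20 at 2 h had 2.71 CPM in leaf 5 (1.87 to 3.75) and 3.60 CPM in leaf 6 (2.11 to 4.23) with HAC, against 0.490 CPM in leaf 5 (0.256 to 0.563) and 0.454 CPM in leaf 6 (0.196 to 0.940) in controls. TIFY28 had 22.6 CPM in leaf 5 (14.3 to 35.3) and 33.7 CPM in leaf 6 (28.6 to 37.7) with HAC, against 3.91 CPM and 4.93 CPM in the controls of those leaves. TIFY9 had 12.1 CPM in leaf 5 (8.94 to 17.0) and 10.7 CPM in leaf 6 (8.39 to 13.9) with HAC, against 2.21 CPM and 2.62 CPM in controls. Even the lowest HAC library of each leaf lay above its highest control for these genes.

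In leaf 4 at 2 h, 0 of the 4 genes passed edgeR's test, where 0.923% of all genes rose. TIFY20 and JAZ9 had an unadjusted p under 0.05, and DESeq2 called 0 of 4. TIFY20 had a median of 2.31 CPM (1.44 to 4.84) with HAC, against 1.61 CPM (0.893 to 2.11) in controls, a log2 difference of 0.69 ± 0.26 (adjusted p = 0.159). JAZ9 had 2.17 CPM (1.41 to 4.72) with HAC, against 1.32 CPM (0.847 to 2.03) in controls, a log2 difference of 0.92 ± 0.36 (adjusted p = 0.191). For TIFY28 the difference was 0.47 ± 0.27 and for TIFY9 0.43 ± 0.26 (adjusted p = 0.421 and 0.450). HAC and control libraries overlapped for each of the 4 genes.

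The time course separated JAZ9 from the other 3 genes. Between the HAC groups, TIFY20 was lower at 2 h than at 30 min by 7.96-fold, 21.1-fold and 15.0-fold in leaves 4, 5 and 6. TIFY28 was lower at 2 h by 7.94-fold, 9.97-fold and 6.49-fold, and TIFY9 by 4.31-fold, 12.5-fold and 12.6-fold. All 9 of these falls passed the test, with adjusted p of at most 1.01e-07, and in each the 2 h libraries lay below all 30 min libraries. Of all genes tested, 2.11%, 8.35% and 10.5% were lower at 2 h in leaves 4, 5 and 6.

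JAZ9 passed the test between times in none of the leaves. In leaf 4 its median was 2.17 CPM at 2 h (1.41 to 4.72), against 4.24 CPM at 30 min (1.14 to 6.15). In leaf 5 it was 7.02 CPM at 2 h (5.20 to 8.37), against 8.70 CPM at 30 min (3.99 to 10.2). In leaf 6 it was 13.5 CPM at 2 h (10.1 to 14.7), against 7.16 CPM at 30 min (3.53 to 12.95). The log2 differences of 2 h over 30 min were −0.53 ± 0.34, −0.25 ± 0.33 and 0.74 ± 0.33 (adjusted p = 0.462, 0.688 and 0.0996), and in leaf 6 the unadjusted p was under 0.05. Without leaf 6 HAC 30 min library 6, at 12.95 CPM the highest of its group, the leaf 6 difference was 0.96 (adjusted p = 0.0372).

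Because one gene passing and another missing a threshold does not test their difference, the log2 ratio of each gene to JAZ9 was taken within each library and compared between times by an exact two-sided permutation test, a comparison chosen after the values had been seen. The TIFY20 to JAZ9 log2 ratio averaged −1.31 ± 0.20 (SD, n = 6) at 2 h and 2.86 ± 0.25 at 30 min in leaf 5. In leaf 6 it averaged −1.93 ± 0.52 at 2 h and 2.87 ± 0.67 at 30 min, a change of sign on a scale that is not corrected for gene length. In leaf 4 the average was 0.0042 ± 0.17 at 2 h and 2.64 ± 0.92 at 30 min.

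The ratios of TIFY28 and TIFY9 to JAZ9 moved the same way. The TIFY28 ratio was lower at 2 h than at 30 min by 2.62, 3.12 and 3.56 log2 units in leaves 4, 5 and 6, and the TIFY9 ratio by 1.75, 3.44 and 4.54. The times did not overlap in any of the 9 ratios, and each gave an exact permutation p of 0.00216, the smallest that 924 splits allow, also after adjustment over the 9 tests. The 3 ratios of each leaf share the same JAZ9 values, so the 9 tests are not independent. All were chosen after the values had been seen. The narrowest gap was that of TIFY9 in leaf 4, where the highest ratio at 2 h was 3.76 and the lowest at 30 min 3.96. In leaf 4 the highest 30 min ratios were those of libraries 5 and 6, at least 3.23 for TIFY20, 5.94 for TIFY28 and 5.66 for TIFY9, against at most 2.61, 4.95 and 4.78 in the other 4. Without these 2 libraries the leaf 4 differences of 2 h minus 30 min were −2.11 for TIFY20, −2.05 for TIFY28 and −1.22 for TIFY9, against −2.63, −2.62 and −1.75 with them. Each then had an exact permutation p of 0.00476, the smallest that 210 splits allow, in a comparison added after the values had been seen.

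**Figure D2:**
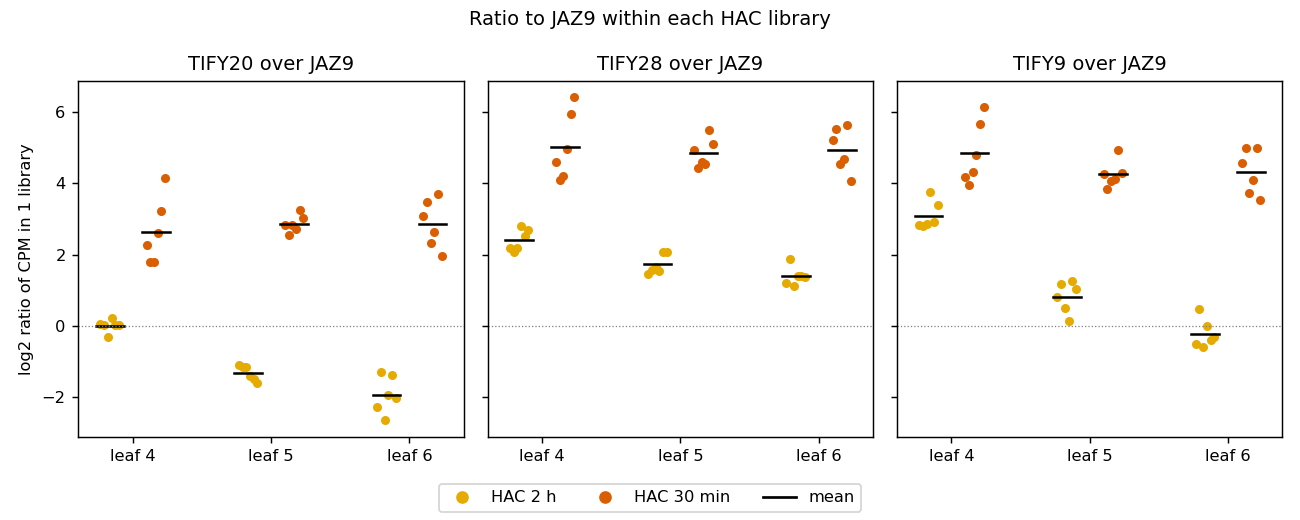
Log2 ratio of the CPM of TIFY20, TIFY28 and TIFY9 to that of JAZ9 in each HAC library, with 1 point per library, the mean as a black line and 2 h left of 30 min in each leaf. In each panel and leaf all 2 h points lie below all 30 min points; for TIFY20 the 2 h points fall below 0 in leaves 5 and 6.

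After 2 h of ZmPep3, the 4 genes rose in all 3 leaves, leaf 4 included. In leaf 4 the rises at 2 h were 20.4-fold for TIFY20, 9.77-fold for TIFY28, 8.18-fold for TIFY9 and 12.8-fold for JAZ9. In leaf 5 they were 21.2-fold, 13.7-fold, 15.7-fold and 44.1-fold, and in leaf 6 13.8-fold, 8.91-fold, 8.36-fold and 19.0-fold. All ZmPep3 libraries lay above all controls of their leaf for each gene, and the largest adjusted p was 5.82e-13. The share of all genes separated in this way was not counted. Of all genes tested, 20.3%, 22.4% and 23.3% rose in leaves 4, 5 and 6.

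The level that TIFY9 reached with ZmPep3 was highest in leaf 4, with medians of 122 CPM in leaf 4 (109 to 162), 39.5 CPM in leaf 5 (30.9 to 42.4) and 22.0 CPM in leaf 6 (16.4 to 40.2). TIFY20 followed the same order, with 29.8 CPM (21.3 to 47.1), 8.91 CPM (6.83 to 13.1) and 6.46 CPM (5.07 to 10.1). Leaf 4 libraries lay above those of both younger leaves for these 2 genes. TIFY28 had 87.1 CPM (62.9 to 136), 48.7 CPM (39.1 to 53.4) and 54.4 CPM (40.4 to 67.9), and its leaf 4 and leaf 6 libraries overlapped. JAZ9 medians were close in the 3 leaves, at 15.7 CPM (12.9 to 25.4), 15.5 CPM (6.93 to 17.1) and 18.0 CPM (17.2 to 20.7). All leaf 6 libraries of JAZ9 lay narrowly above all those of leaf 5, and leaf 4 overlapped with both. In leaf 5, ZmPep3 libraries 5 and 6 had 10.5 and 6.93 CPM of JAZ9, below the 15.4 CPM or more of the other 4. The JAZ9 log2 fold change in leaf 6 was 4.85 without leaf 6 control library 4, and 4.25 ± 0.39 with all libraries.

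The agents could be compared at the matched time of 2 h. In leaf 4, all 4 genes were higher with ZmPep3 than with HAC, by 12.6-fold for TIFY20, 7.03-fold for TIFY28, 6.05-fold for TIFY9 and 6.77-fold for JAZ9, where 15.2% of all genes were higher. In leaf 5 all 4 were also higher, by 3.40-fold, 2.04-fold, 3.15-fold and 1.98-fold, against 14.6% of all genes, and the JAZ9 groups overlapped. In leaf 6 TIFY20 (1.99-fold) and TIFY9 (2.23-fold) were higher, 2 of 4 against 12.8% of all genes. TIFY28 and JAZ9 did not pass there, with log2 differences of 0.67 ± 0.26 and 0.53 ± 0.32 (adjusted p = 0.0682 and 0.275), although their ZmPep3 libraries lay above all HAC libraries. With only the groups of this comparison fitted, both passed, with 0.65 and 0.52 (adjusted p = 0.00035 and 0.000515).

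**Figure D3:**
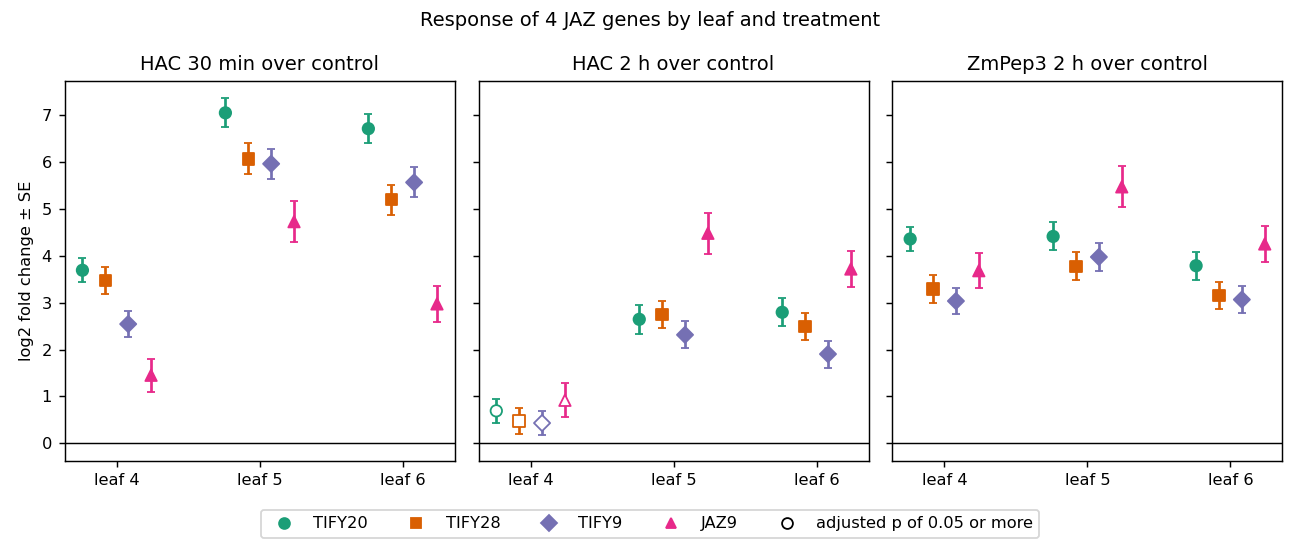
Log2 fold change over the control of the same leaf (vertical axis, ± SE) for the 4 genes in leaves 4, 5 and 6, in panels for HAC 30 min, HAC 2 h and ZmPep3 2 h; open symbols mark an adjusted p of 0.05 or more. The 4 open symbols are those of leaf 4 after 2 h of HAC, and the highest point is TIFY20 in leaf 5 after 30 min of HAC (7.04).

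Control leaves already differed. In leaf 5 controls all 4 genes were lower than in leaf 4 controls, by 3.61-fold for TIFY20, 2.78-fold for TIFY28, 6.48-fold for TIFY9 and 4.50-fold for JAZ9, with no overlap between the leaves. Of all genes tested, 26.3% were lower in that comparison. In leaf 6 controls, TIFY20 (3.23-fold), TIFY28 (1.61-fold) and TIFY9 (5.33-fold) were lower than in leaf 4 controls, 3 of 4 against 34.9% of all genes. JAZ9 had a log2 difference of −0.51 ± 0.39 there (adjusted p = 0.237), and of −1.11 (0.0116) without leaf 6 control library 4. The TIFY28 difference, −0.69 ± 0.28 (adjusted p = 0.0234), no longer passed when any 1 of 5 libraries was left out, leaf 4 control libraries 2 and 6 and leaf 6 control libraries 1, 3 and 5, with values from −0.62 to −0.51.

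In leaf 6 controls against leaf 5 controls, TIFY28 and JAZ9 were higher, 2 of 4 against 22.2% of all genes, with log2 differences of 0.79 ± 0.29 and 1.66 ± 0.47 (adjusted p = 0.0216 and 0.00299). Both rested on leaf 6 control library 4. Without it the values were 0.32 (adjusted p = 0.361) and 1.06 (0.0679), and the TIFY28 call was also lost without leaf 5 control library 1 (0.66) or 3 (0.68). TIFY20 and TIFY9 differed by 0.16 ± 0.38 and 0.28 ± 0.30 (adjusted p = 0.760 and 0.466). The ligule genes lg1 and lg2 were highest in leaf 6, while lg4 had a median of 0 CPM in every leaf. The part of ligule tissue in these differences was not tested.

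The difference in response between leaves was tested directly. The HAC response at 30 min was larger in leaf 5 than in leaf 4 for all 4 genes, by 3.35 ± 0.38 log2 units for TIFY20, 2.60 ± 0.39 for TIFY28, 3.41 ± 0.39 for TIFY9 and 3.27 ± 0.56 for JAZ9, where 2.68% of all genes had a larger response. In leaf 6 against leaf 4, 3 of 4 were larger, against 4.23% of all genes, by 3.02 ± 0.38 for TIFY20, 1.72 ± 0.38 for TIFY28 and 3.02 ± 0.38 for TIFY9. JAZ9 differed by 1.52 ± 0.51 (adjusted p = 0.0691). Its value was 2.12 (adjusted p = 0.00302) without leaf 6 control library 4, and it also passed without leaf 4 HAC 30 min library 1 (1.67) or 2 (1.71), or leaf 6 HAC 30 min library 2 (1.67). DESeq2 called it as well, with 1.53 (adjusted p = 0.0318).

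At 2 h the HAC response of all 4 genes was larger in leaf 5 and in leaf 6 than in leaf 4, against 2.21% and 7.27% of all genes. JAZ9 had the largest of these differences, with 3.56 ± 0.57 in leaf 5 and 2.79 ± 0.52 in leaf 6 (3.40 without leaf 6 control library 4). For the other 3 genes they ran from 1.88 to 2.27 in leaf 5 and from 1.47 to 2.10 in leaf 6. The TIFY9 value in leaf 6, 1.47, had an adjusted p of 0.00600, and of 0.0584 with only the groups of that comparison fitted. A larger fold change was not always a higher level. TIFY9 after 2 h of HAC had medians of 20.9 CPM in leaf 4 (10.5 to 33.2), 12.1 CPM in leaf 5 (8.94 to 17.0) and 10.7 CPM in leaf 6 (8.39 to 13.9). These ranges overlapped. The TIFY9 controls had 16.1 CPM, 2.21 CPM and 2.62 CPM in the same order. Medians of TIFY20, TIFY28 and JAZ9 after 2 h of HAC were lowest in leaf 4. The TIFY20 ranges overlapped between leaves, as did those of TIFY28 in leaf 4 (6.68 to 19.8 CPM) and leaf 5 (14.3 to 35.3 CPM).

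Between leaves 6 and 5, none of the 4 genes differed in HAC response at either time by edgeR or DESeq2, with 2 genes (TIFY28 and JAZ9) at 30 min and 0 at 2 h under an unadjusted p of 0.05. At 30 min 0.360% of all genes passed in either direction and at 2 h 1.74%. The response to ZmPep3 was larger in leaf 5 than in leaf 4 for JAZ9 alone, 1 of 4 against 5.33% of all genes, with a difference of 1.79 ± 0.56 (adjusted p = 0.0344). Leaving out any 1 of 9 libraries ended that call, with adjusted p from 0.0504 to 0.0646: leaf 4 control libraries 2 and 6, leaf 5 control libraries 1, 5 and 6, leaf 4 ZmPep3 libraries 3 and 5, and leaf 5 ZmPep3 libraries 3 and 4. TIFY9 differed by 0.94 ± 0.38 (adjusted p = 0.124), and passed without leaf 4 control library 4 (1.11, adjusted p = 0.0480) or leaf 5 control library 3 (1.19, adjusted p = 0.0408).

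For leaf 6 against leaf 4 and leaf 6 against leaf 5, 0 of the 4 genes differed in ZmPep3 response by edgeR or DESeq2, where 18.6% and 2.07% of all genes did in either direction. None had an unadjusted p under 0.05 in the first comparison, and TIFY9 and JAZ9 had in the second. Control levels differed between leaves as well. TIFY9 had a median of 150 CPM in leaf 5 and 94.4 CPM in leaf 4 after 30 min of HAC, and of 2.21 CPM in leaf 5 and 16.1 CPM in leaf 4 in controls.

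Levels of different genes were compared in FPKM, the authors' values per gene length and sequencing depth. After 30 min of HAC in leaf 5, the median was 242 FPKM for TIFY28, 177 FPKM for TIFY9, 81.5 FPKM for TIFY20 and 11.4 FPKM for JAZ9. After 2 h of HAC in leaf 6 the order was different, with 37.0 FPKM for TIFY28, 16.1 FPKM for JAZ9, 11.7 FPKM for TIFY9 and 4.60 FPKM for TIFY20. In leaf 4 controls TIFY9 was highest with 24.6 FPKM, followed by TIFY28 with 12.8 FPKM, TIFY20 with 2.93 FPKM and JAZ9 with 2.30 FPKM. The ranges of TIFY28 and TIFY9 overlapped in these controls, as did those of TIFY20 and JAZ9.

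As a share of the summed FPKM of all 21 TIFY family genes, the 4 genes together had medians of 14.2%, 19.4% and 18.7% in leaves 4, 5 and 6 after 30 min of HAC. After 2 h of HAC the medians were 4.21%, 2.90% and 2.70%, and after 2 h of ZmPep3 12.4%, 6.51% and 5.95%. In controls they were 3.64%, 1.12% and 1.28%. The 30 min libraries lay above all others of their leaf in leaves 5 and 6, with at least 16.3% in leaf 5 and 18.2% in leaf 6.

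Ordered by median CPM over the 12 groups, TIFY20 and TIFY9 were highest in leaf 5 and TIFY28 in leaf 6 after 30 min of HAC. Neighbours at the top overlapped in range: leaves 5 and 6 at 30 min for all 3 genes, and leaf 4 with ZmPep3 below them for TIFY20 and TIFY9. For TIFY20 the ranges of neighbouring groups separated in 2 places, below ZmPep3 in leaf 6 and below leaf 4 controls. For TIFY28 they separated below HAC 30 min in leaf 5 and below ZmPep3 in leaf 5. For TIFY9 they separated below HAC 30 min in leaf 4 and below HAC 2 h in leaf 6. The ranges of neighbouring JAZ9 groups overlapped throughout, and its 3 highest medians were those of the 3 ZmPep3 groups. The lowest median was that of leaf 6 controls for TIFY20 and of leaf 5 controls for the other 3 genes.

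Most of the other TIFY genes moved in the same direction. Apart from the 4 described, the table held 17 TIFY family genes, all tested. After 30 min of HAC, 11, 12 and 12 of the 17 rose in leaves 4, 5 and 6, against 2.53%, 8.15% and 8.49% of all genes tested. The rest did not pass. The median log2 fold changes of the 17 were 0.71, 1.44 and 1.28, against 0.00, −0.01 and −0.01 over all genes tested. After 2 h of HAC, 3, 12 and 13 rose, against 0.923%, 9.59% and 13.9% of all genes tested. The rest did not pass, and the medians of the 17 were 0.33, 1.13 and 1.42. The 3 that rose in leaf 4 were TIFY16 (0.65 ± 0.16), TIFY6 and TIFY27, of which the last 2 are named because of their calls. In a fit of those groups alone 0 of the 21 family genes passed there. It was also 0 without leaf 4 control library 4 or leaf 4 HAC 2 h library 3, and 1 without leaf 4 control library 1, 3 or 5.

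With ZmPep3, 13 of the 17 rose in each leaf, against 20.3%, 22.4% and 23.3% of all genes in leaves 4, 5 and 6, with median log2 fold changes of 1.55, 1.60 and 1.23. In leaf 4, 2 fell, TIFY23 (−0.32 ± 0.09) and TIFY12. In leaf 5, 4 fell, TIFY18 (−0.36 ± 0.15), TIFY12, TIFY21 and TIFY23. Of all genes, 21.9% fell in leaf 4 and 23.0% in leaf 5. TIFY12 and TIFY21 are named because of their calls. TIFY29 had the largest rise past the test of the 17 in 8 of the 9 comparisons, with log2 fold changes of 3.25 ± 0.59, 5.99 ± 0.61 and 4.63 ± 0.54 after 30 min of HAC in leaves 4, 5 and 6, and of 6.05 ± 0.58, 6.26 ± 0.61 and 5.23 ± 0.55 with ZmPep3. Its control medians were 0.157, 0.0840 and 0.236 CPM in leaves 4, 5 and 6, with a lowest value of 0 in each. These fold changes therefore start from levels near 0. Between the HAC times, 7, 5 and 3 of the 17 were lower at 2 h than at 30 min in leaves 4, 5 and 6, while 2 were higher in leaf 5 and 9 in leaf 6. Of all genes tested, 2.11%, 8.35% and 10.5% were lower in leaves 4, 5 and 6, and 7.03% were higher in leaf 5 and 10.1% in leaf 6. Some expected counts of TIFY16, TIFY17 and TIFY30 were not whole, so their reads are partly shared with other genes and their levels are uncertain.

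**Figure D4:**
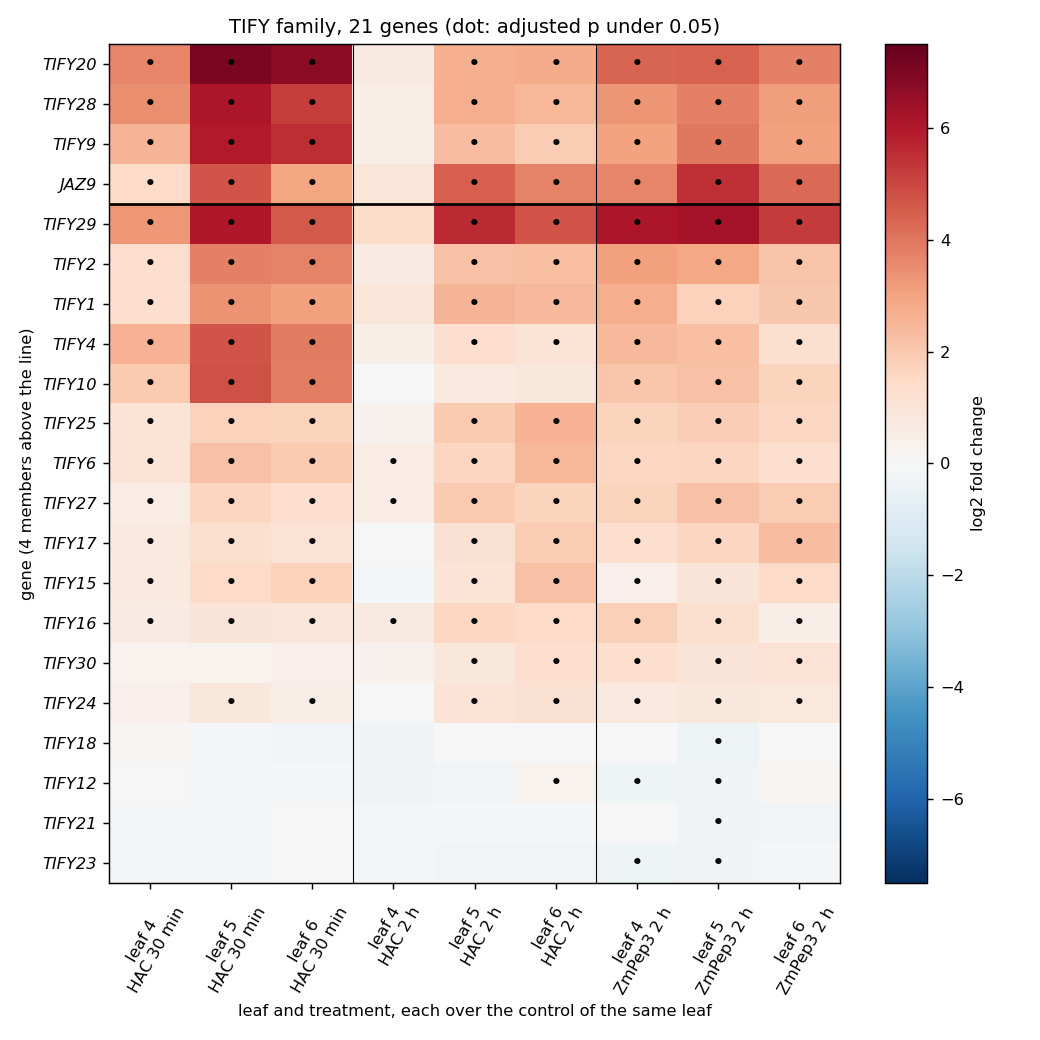
Log2 fold change over the control of the same leaf (colour) for the 21 TIFY family genes (rows, the 4 JAZ genes above the line and the rest by mean change) in the 9 leaf and treatment groups (columns), with a dot at an adjusted p under 0.05. The rows below TIFY29 fade towards the bottom, where TIFY12, TIFY18, TIFY21 and TIFY23 show nearly white cells, and the leaf 4 HAC 2 h column holds 3 dots.

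In the order of protein-coding genes in the table's assembly, TIFY28 and TIFY29 are adjacent, and so are TIFY9 and TIFY10. Likeness between genes was measured as Pearson's r of the 12 group means of log2 CPM, which share libraries and controls and are given as a description. Between TIFY9 and its neighbour TIFY10, named for that position, r was 0.928, and both fell between 30 min and 2 h of HAC, TIFY10 by a log2 value of 4.05 ± 0.41 in leaf 5. Between TIFY28 and its neighbour TIFY29 r was 0.800. Among other adjacent pairs, named for position, r was 0.661 for TIFY1 and TIFY2 and 0.875 for TIFY2 and TIFY4. Successive family genes with other genes between them had r from −0.206 (TIFY18 and TIFY20) to 0.834 (TIFY24 and TIFY25, named for position). Whether likeness goes with position was not tested. In leaf 5, TIFY29 stood at 5.85 CPM after 2 h of HAC (2.15 to 8.37) and 7.69 CPM after 30 min (6.12 to 9.76), a log2 difference of −0.41 ± 0.42 (adjusted p = 0.577).

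TIFY20, TIFY28 and TIFY9 were alike, with r from 0.938 to 0.982 among the 3, and r to JAZ9 from 0.670 to 0.764. Of 1997 named genes with a mean of at least 5 CPM in a group, those most like TIFY20 were TIFY28 (0.982), TIFY9 (0.978) and bHLH76 (0.975). Those most like TIFY28 were TIFY20, bHLH76 (0.981) and MYC2a (0.957), a gene named as a MYC factor. Those most like TIFY9 were TIFY20, bHLH116 (0.973) and TIFY4 (0.971). Like the 3 JAZ genes, bHLH76 was lower at 2 h than at 30 min of HAC, with log2 values of −2.09 ± 0.27, −2.94 ± 0.27 and −2.13 ± 0.26 in leaves 4, 5 and 6. MYC2a was lower too, with −1.32, −1.41 and −0.57. Both genes were named here for their likeness over the same groups, so these falls are part of that likeness and not a separate result.

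The genes most like JAZ9 were TIFY29 (r = 0.944), cda2 (0.924) and ts5 (0.913), the tasselseed gene for a cytochrome P450 of the family that inactivates jasmonoyl-isoleucine. Between HAC at 2 h and 30 min, ts5 fell in leaf 4 (−0.84 ± 0.19), while in leaves 5 and 6 its values of −0.51 ± 0.19 and 0.34 ± 0.19 did not pass (adjusted p = 0.0545 and 0.212). cda2 rose between the times in leaves 5 and 6, by 1.13 ± 0.25 and 1.84 ± 0.25. These genes too were picked by likeness over groups that include both HAC times.

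Other genes of the pathway, listed by symbol, were set beside these values. MYC2a rose in 8 of the 9 treatment comparisons, with log2 fold changes of 1.51 ± 0.12, 2.63 ± 0.12 and 2.29 ± 0.12 after 30 min of HAC and 1.83 ± 0.12, 1.94 ± 0.12 and 2.18 ± 0.12 with ZmPep3 in leaves 4, 5 and 6. The exception was leaf 4 after 2 h of HAC, with 0.19 ± 0.12. The 3 co-repressor genes, rel2, RELK2 and RELK3, are related to TOPLESS. After 30 min of HAC their log2 values lay between −0.07 and 0.25 with no call, and rel2 in leaf 5 had an unadjusted p of 0.0268. Of all genes tested, 2.53%, 8.15% and 8.49% rose there in leaves 4, 5 and 6. rel2 rose in leaf 6 after 2 h of HAC (0.52 ± 0.11) and fell in leaf 4 with ZmPep3 (−0.44 ± 0.11), and RELK3 rose in leaf 6 with ZmPep3 (0.27 ± 0.08). Each was 1 call among 3 genes, where in the same order 13.9% of all genes rose, 21.9% fell and 23.3% rose. Such counts do not set the 3 genes apart.

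The jasmonate synthesis list held 19 genes with symbols of lipoxygenases, allene oxide synthases and cyclases, and oxophytodienoate reductases, called synthesis genes here. It takes every such reductase symbol, and whether each gene acts in jasmonate synthesis was not tested. Of the 19, 2, 8 and 10 rose after 30 min of HAC in leaves 4, 5 and 6, against 2.53%, 8.15% and 8.49% of all genes tested. After 2 h of HAC 3, 11 and 11 rose, against 0.923%, 9.59% and 13.9% of all genes. With ZmPep3 14, 15 and 16 rose, against 20.3%, 22.4% and 23.3%. In leaf 4 the risers were ts1 and aos1 at 30 min of HAC, and lox11, aos3 and opr7 at 2 h. The 2 at 30 min became 1 without any 1 of leaf 4 control libraries 3, 4 and 5 or leaf 4 HAC 30 min libraries 1, 2, 3 and 4. The 3 at 2 h became 0 with only those groups fitted and without leaf 4 control library 4 or leaf 4 HAC 2 h library 3. They became 1 without leaf 4 control library 3 or 5 or leaf 4 HAC 2 h library 2. The reductase gene opr6 fell in leaves 5 and 6 after 2 h of HAC (−0.44 ± 0.16 and −1.04 ± 0.16) and in all 3 leaves with ZmPep3, and opr3 fell in leaf 6 after 2 h of HAC (−2.52 ± 0.82). Of all genes, 7.26% fell in leaf 5 and 11.0% in leaf 6 after 2 h of HAC, and 21.9%, 23.0% and 18.8% fell in leaves 4, 5 and 6 with ZmPep3. Of these, ts1, aos1, lox11, opr6 and opr3 are named because of their calls. The allene oxide cyclase gene aoc2 showed no change in leaf 4 after 30 min of HAC that passed the test (−0.15 ± 0.14), and rose there with ZmPep3 (1.01 ± 0.14).

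Between the HAC times, the genes of the synthesis list moved in both directions. Of the 19, 9 were higher and 1 lower at 2 h than at 30 min in leaf 5, against 7.03% and 8.35% of all genes, and 10 were higher and 4 lower in leaf 6, against 10.1% and 10.5%. The lipoxygenase gene ts1 was lower, like TIFY20, TIFY28 and TIFY9, in leaf 5 (−1.80 ± 0.18) and leaf 6 (−2.38 ± 0.18). The other 3 lower in leaf 6 were opr2, opr3 and opr6, and these 4 are named because of their calls. Of the genes named by rule, opr7, for an oxophytodienoate reductase, was higher at 2 h than at 30 min of HAC by log2 values of 1.43 ± 0.15 in leaf 5 and 1.84 ± 0.15 in leaf 6. aoc2 was higher by 0.96 ± 0.14 and 1.34 ± 0.14, and the allene oxide synthase gene aos3 by 0.77 ± 0.18 and 0.63 ± 0.18. In leaf 4 none of the 19 passed edgeR's test between the times, and ts1, aos2, aos3, aos4, opr6 and opr7 had an unadjusted p under 0.05. Only 2.11% of all genes were lower there, so 0 of 19 lower is near that share. The share of all genes that were higher in leaf 4 is not given here. TIFY20, TIFY28 and TIFY9 fell over the same interval in all 3 leaves.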

How the data were processed

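Whole-leaf RNA from 72 libraries (12 groups of 6) was sequenced. Reads were aligned with Bowtie2, quantified with RSEM and referred to B73 RefGen_v4, per the submitters' processing notes, and versions, annotation and strand are not given in the sources used here. The deposited table holds expected counts per gene and FPKM, both made by the authors. Of 43547 entries, 11312 were blank and 32235 held values, and 11.1% of expected counts above 0 were not whole. Names came from a gene table of Zm-B73-REFERENCE-NAM-5.0 (30403 numbers matched). That build differs from the authors', so its coordinates served only to find which genes neighbour each other, and none is printed.

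Expected counts, as deposited by the authors, were rounded, scaled by TMM and filtered by filterByExpr (25558 genes tested). They were fitted with edgeR 4.0.16 (R 4.3.3, limma 3.58.1) by the robust quasi-likelihood test, with 1 coefficient per group, 27 contrasts and Benjamini-Hochberg adjustment within each contrast at 0.05. CPM uses the TMM-scaled totals. FPKM, the authors' deposited values, were used only to compare levels between genes. Correlations used log2 CPM with a prior count of 2. The fit was tested on simulated data with the same dispersion for every gene and changes set only in genes above a limit of counts. That test therefore does not cover low counts or differences in spread between genes. Alternatives were DESeq2 1.42.0, its size factors in edgeR, no filter, a mean of at least 1 CPM, a replicate block, only the groups compared, and libraries left out singly (at the dispersions of the full fit) or in pairs.

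Other genes named were the TIFY genes with the largest rise and fall in each treatment comparison, the 3 named genes most like each JAZ gene, and at most 3 genes of each pathway list with the smallest adjusted p. Those outside this rule are said to be named for their calls or position. The 4 genes, lists and pairs of libraries were chosen with earlier results of these data known. Pathway lists rest on gene symbols and miss unnamed genes. A protein-based grouping of the family and a list of jasmonate catabolism genes, both planned, were not used here.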

Additional observations from a re-analysis of the deposited data

Results flagged for a closer look

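Dixon's test was run for each of the 4 genes in each of the 12 groups of 6 libraries. In 2 of these sets a library lay far from the others. Chance gives this in about 1 in 20 sets, so 2 is no more than chance would give. TIFY28 had 14.2 CPM in leaf 6 control library 4, against 2.11 to 5.93 CPM in the other 5. JAZ9 had 3.99 CPM in leaf 5 HAC 30 min library 5, against 8.21 to 10.2 CPM in the other 5.

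The response to treatment differed between leaves, by a test of the difference itself, in 16 cases, where 9 differences were tested for each of the 4 genes. For HAC at 30 min in leaf 5 minus leaf 4 the log2 differences were 3.35 for TIFY20, 2.60 for TIFY28, 3.41 for TIFY9 and 3.27 for JAZ9. In leaf 6 minus leaf 4 they were 3.02 for TIFY20, 1.72 for TIFY28 and 3.02 for TIFY9. For HAC at 2 h in leaf 5 minus leaf 4 they were 1.95 for TIFY20, 2.27 for TIFY28, 1.88 for TIFY9 and 3.56 for JAZ9. In leaf 6 minus leaf 4 they were 2.10, 2.01, 1.47 and 2.79 in the same order of genes. For ZmPep3 in leaf 5 minus leaf 4, JAZ9 differed by 1.79, a call that leaving out any 1 of 9 libraries ended. Of all genes tested, 2.68% had a larger response at 30 min of HAC in leaf 5 than in leaf 4, and 4.23% in leaf 6. At 2 h of HAC 2.21% did in leaf 5 and 7.27% in leaf 6, and with ZmPep3 5.33% did in leaf 5.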

How the results depend on the processing

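Of 126 results, 126 kept their direction and side of the threshold with a mean of at least 1 CPM, 125 with DESeq2 size factors, 124 with the DESeq2 test, 124 with no filter, 124 with the replicate block and 118 with only the groups compared. Same-numbered libraries share only a number: of 396 pairs, 36 had deviations correlated above 0.1 (median r 0.0123, other pairs −0.0036). The replicate block changed 1 call, that of JAZ9 in the HAC 30 min response of leaf 6 minus leaf 4, to 1.67 (adjusted p = 0.0260), and turned the TIFY9 ZmPep3 response of leaf 6 minus leaf 4 to −0.018, against 0.03 without it. The causes of the changes below were not tested. The TIFY9 value was −0.038 with DESeq2 size factors and −0.040 with the DESeq2 test, and JAZ9 was 1.53 with the DESeq2 test. With no filter, 1 synthesis gene rose in leaf 4 at 30 min of HAC and 1 at 2 h.

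With only the groups compared, 0 TIFY and 0 synthesis genes rose in leaf 4 at 2 h of HAC. In the same fits the TIFY9 HAC 2 h response of leaf 6 minus leaf 4 was 1.47 (adjusted p = 0.0584), JAZ9 between HAC times in leaf 6 was 0.75 (0.0353), and ZmPep3 over HAC at 2 h in leaf 6 was 0.65 for TIFY28 and 0.52 for JAZ9. TIFY28 in controls was −0.70 (0.153) for leaf 6 over leaf 4 and 0.78 (0.122) for leaf 6 over leaf 5. Without leaf 6 control libraries 5 and 6, TIFY28 was −0.57 (0.103) for leaf 6 over leaf 4, and TIFY20 was −0.084 (0.898) for leaf 6 over leaf 5. Without leaf 5 ZmPep3 libraries 1 and 6, the TIFY20 ZmPep3 response of leaf 5 minus leaf 4 was −0.13 (0.917).

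With each library left out in turn, risers in leaf 4 ran from 1 to 3 synthesis genes at 30 min of HAC, and at 2 h from 0 to 4 TIFY genes and from 0 to 4 synthesis genes. The HAC 30 min response of JAZ9 in leaf 6 minus leaf 4 ran from 1.26 to 2.12. ZmPep3 responses of leaf 5 minus leaf 4 ran from −0.066 to 0.19 for TIFY20, 0.78 to 1.19 for TIFY9 and 1.64 to 1.92 for JAZ9. Those of leaf 6 minus leaf 4 ran from −0.31 to 0.34 for TIFY28 and −0.16 to 0.27 for TIFY9. HAC 2 h responses of leaf 6 minus leaf 5 ran from −0.020 to 0.45 for TIFY20 and −0.43 to 0.22 for TIFY28. Controls of leaf 6 over leaf 4 ran from −1.16 to −0.51 for TIFY28 and −1.11 to −0.25 for JAZ9. Controls of leaf 6 over leaf 5 ran from −0.14 to 0.33 for TIFY20, 0.32 to 0.96 for TIFY28 and 1.06 to 1.92 for JAZ9. JAZ9 between HAC times in leaf 6 ran from 0.60 to 0.96. Of the 4 genes, depth limits JAZ9 most, whose lowest library, a leaf 6 control, held 1 count.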
